A study of Mus musculus with 2 samples.

Results

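The genes for RNA polymerase II, the Mediator complex and the general transcription factors were examined in B cells of NOD mice that did or did not carry human AIRE. The group took in every probe set whose only gene symbol in the platform annotation begins with Polr2, with Med, Taf or Gtf2 and then a digit, or with Gtf2 and then a letter. This gave 147 probe sets for 80 genes, out of 18193 named genes on the array. Of the 80 genes, 74 lay above the intensity filter, which asks that the higher of a gene's values reaches the median of both arrays (98.8). The 6 under it were Gtf2a1l, Taf7, Taf7l, Taf7l2, Med12l and Med9os, a transcript antisense to Med9. A further 6 probe sets carry a member's symbol together with another gene's and were left out, so that Polr2k, Polr2l and Taf9 were not analysed here.

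Both groups were 8 weeks old and of the NOD background, an inbred mouse line prone to autoimmune diabetes. In the AIRE transgenic group the human gene was driven by the promoter of an MHC class II gene, which is active in B cells, dendritic cells and other cells that present antigen. The non-transgenic group did not carry it. The cells lacked Thy1 and CD11c and were positive for B220, and the RNA of 2 mice per group went onto 1 Affymetrix array each. With 1 array per group no difference has a replicate check and no p-value can be given. Every ratio describes these 2 arrays.

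RNA polymerase II transcribes the protein-coding genes. It is brought to promoters by the general factors TFIIA, TFIIB, TFIID, TFIIE, TFIIF and TFIIH, where TFIID is TBP with its TAF proteins, and Mediator carries signals from bound activators to this assembly through its head, middle, tail and kinase modules. In thymic epithelium AIRE is known to act late in this sequence, by releasing polymerase that has paused just past the start site. Resting B cells are small cells that make little RNA, and their RNA synthesis rises on activation.

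Intensities below are the deposited values after the medians of the arrays were aligned, and ratios are log2 of transgenic over non-transgenic with values under 25.1 set to 25.1. The median ratio of the 10778 named genes above the filter was 0.19 with an SD of 0.58, so a gene at 0.19 stood level with the array as a whole. Without the alignment that median was 0.01, and it was 0.05 after quantile normalization and 0.04 after loess. A ratio between about 0 and 0.19 is therefore of unsettled sign, and genes are placed below relative to the median of all genes. The 9 B cell markers measured were all above the filter, and their intensities summed to 179162 in the transgenic sample and 282021 in the non-transgenic one. Their median log2 ratio was -0.41, with 0 of 9 above the median of all genes. For the other cell types the sums rest largely on their brightest genes, so each is given with the median log2 ratio of its markers. The markers of natural killer cells (9 of 9 above the filter) summed to 8275 in the transgenic and 5282 in the other sample, with a median of 0.55. Those of neutrophils (6 of 7) summed to 9212 and 8879 with a median of 0.87, with 4 ratios positive and 2 negative. Ngp and Mpo were past 2-fold higher, but Mpo (106 against 50.7) passed the filter through the transgenic array alone. The brightest, S100a8 and S100a9, were at -0.17 and -0.04. Those of myeloid cells (7 of 7) summed to 13438 and 11790, but their median was -0.06. Those of dendritic cells (6 of 7) summed to 4995 and 5393, but their median was 0.28. T cell markers (8 of 10) summed to 2047 and 2379 with a median of -0.34, with 2 ratios positive and 6 negative. Cd4 was past 2-fold higher (155 against 38.4) but passed the filter through the transgenic array alone. Thy1 was past 2-fold lower (101 against 208). Plasma cell markers (6 of 6) summed to 30835 and 34800 with a median of -0.04. Of the erythroid markers 1 of 4 was above the filter, and the sums were 189 and 183. Hba-a1 and Alas2, which define erythroid cells, were under 25.1 on both arrays. Among the 10 heat shock genes 4 were past 2-fold and higher in the transgenic sample, with sums of 97758 and 58108. The actin control probe sets gave a 3′ over 5′ ratio of 1.49 in the transgenic and 1.25 in the other sample. The part of these differences in the results below was not tested, and in RNA of a whole cell sample fewer cells of a type and less RNA per cell cannot be told apart.

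As a whole the machinery stood close to the other genes. The 74 genes had a median ratio of 0.27, which is 0.09 above that of all genes, and 43 of them lay above the median of all genes. Of the 74, 3 were higher by 2-fold or more in the transgenic sample, where 4.43% of all genes were, and 1 was lower by as much, where 3.19% of all genes were. These shares of 4.05% and 1.35% are near or under the background. The higher genes were Gtf2ird1, Gtf2ird2 and Gtf2h4, and the lower one was Polr2a. At 1.5-fold, 9 members were higher (17.4% of all genes were) and 2 were lower (8.42% of all genes were). The added genes were Med18, Gtf2e1, Taf9b, Taf3, Med20 and Polr2f among the higher and Med16 as the lower one. At 3-fold, 1 member was higher (1.22% of all genes were), Gtf2ird1, and 0 were lower (1.08% of all genes were). Gtf2ird1 passed the filter through the transgenic array alone, where it is higher, so it could only be counted as higher. With both values required to reach the filter, 2 of 73 members were 2-fold higher (2.53% of all genes were) and 1 lower (1.43% of all genes were).

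**Figure D1:**
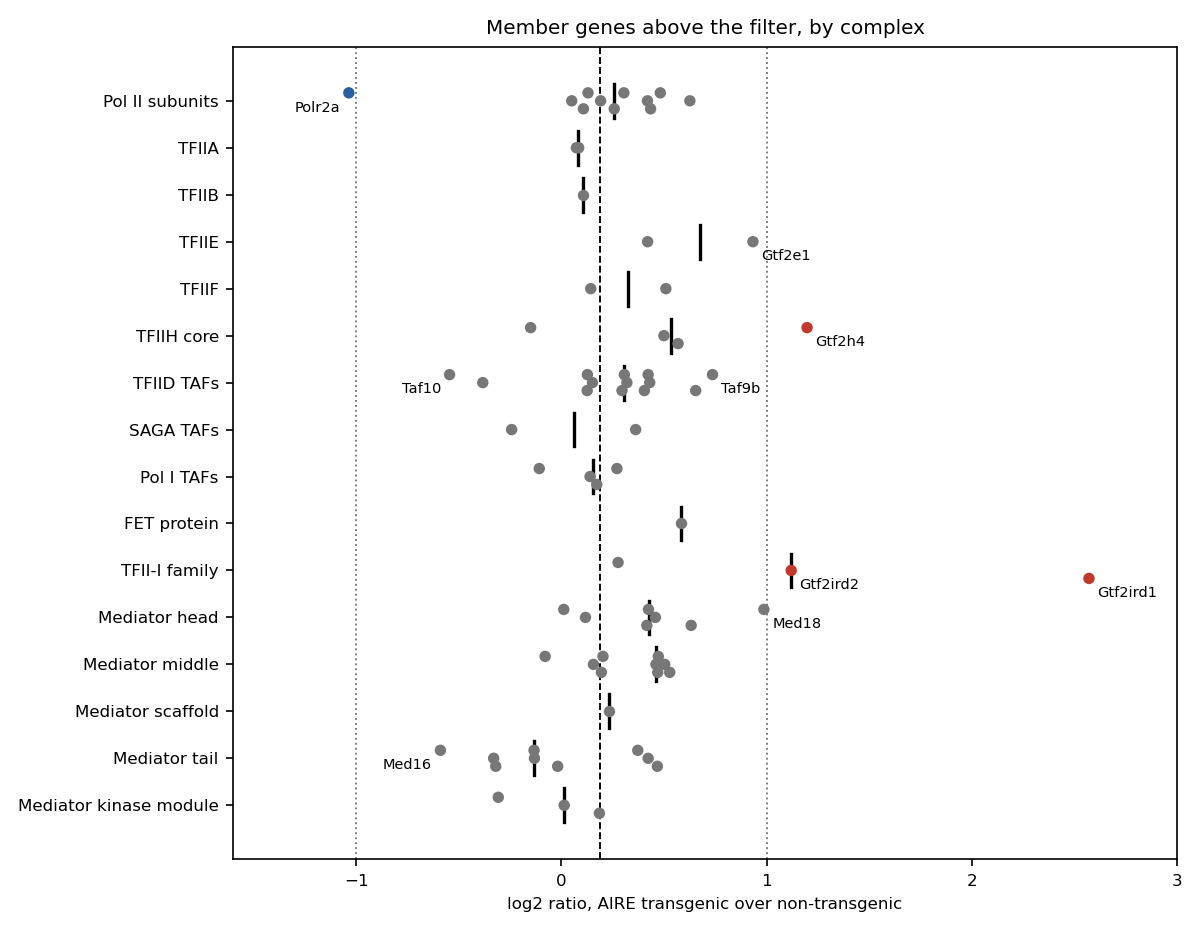
Log2 ratio of AIRE transgenic over non-transgenic for the 74 member genes above the filter, by complex, with 1 array per group. Each point is a gene by its brightest probe set, short bars are medians, the dashed line is the median of all genes (0.19) and dotted lines mark 2-fold; Polr2a lies past 2-fold lower and Gtf2h4, Gtf2ird2 and Gtf2ird1 past 2-fold higher.

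Among the polymerase subunits only Polr2a was 2-fold apart. Polr2a encodes the catalytic subunit, whose long tail of repeats is phosphorylated as transcription proceeds. Its brighter probe set read 3887 in the transgenic sample against 7976 in the non-transgenic one, a ratio of -1.04, or 2.05-fold lower. Its other probe set read 288 against 1382, a ratio of -2.26, or 4.80-fold lower, so both put the gene past 2-fold lower. The difference was larger under the other scalings, at -1.20 without the alignment and -1.21 both after quantile normalization and after loess.

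The other 10 subunits measured ranged from 0.05 to 0.63 with a median of 0.28, and 7 of them lay above the median of all genes. Polr2b, the second largest subunit, which forms the active centre together with the Polr2a product, read 3636 against 2691 (0.43). Its ratio was thus on the other side of the median of all genes from that of its partner. Polr2c and Polr2j, which pair to start the assembly of the enzyme, read 1554 against 1113 (0.48) and 2351 against 1758 (0.42). Polr2g and Polr2d form the stalk from which the nascent RNA emerges. Polr2g read 4380 against 3547 (0.30), and Polr2d read 775 against 709 (0.13). The stalk genes thus stood on either side of the median of all genes.

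The subunits shared with polymerases I and III were not all on one side of the median of all genes. Polr2f read 1437 against 931 (0.63) by its brighter probe set, but 270 against 353 (-0.39) by the other. Polr2h read 1042 against 872 (0.26). Polr2e read 2476 against 2299 (0.11), and its other probe set above the filter read 221 against 243 (-0.13). Polr2i, a small zinc-binding subunit that serves proofreading, read 2256 against 2179 (0.05), and Polr2m, which encodes an inhibitory partner of the enzyme, read 2938 against 2574 (0.19). These last genes were within a small distance of the median of all genes, and Polr2d, Polr2e and Polr2i were negative under the other 3 scalings, as Polr2m was after quantile normalization and loess.

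**Figure D2:**
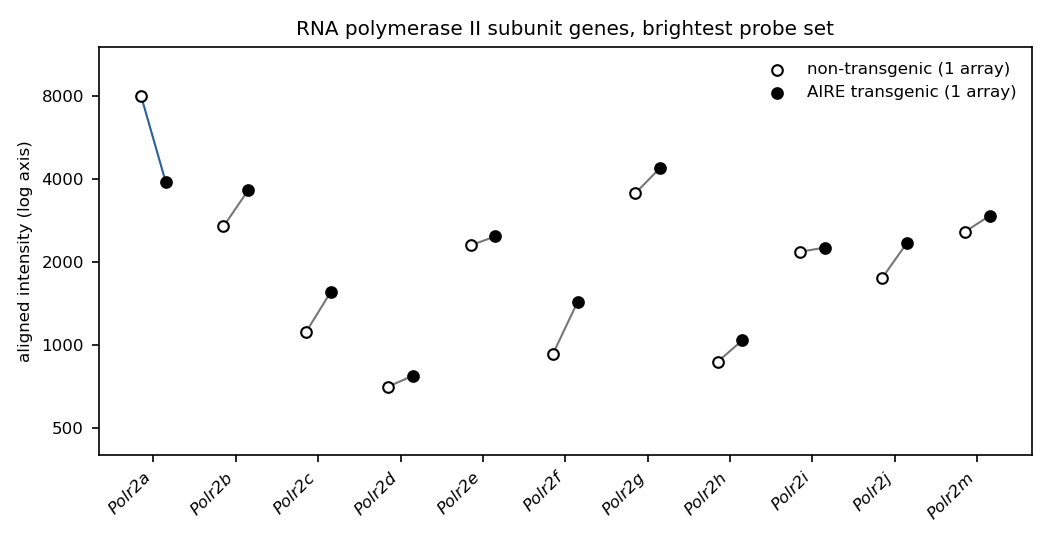
Aligned intensity (log axis) of the 11 RNA polymerase II genes on the non-transgenic array (open circles) and the transgenic array (filled circles), by the brightest probe set of each gene and with 1 array per group. Polr2a goes from 7976 down to 3887, while the other genes have ratios from 0.05 to 0.63; Polr2d, Polr2e and Polr2i are lower rather than higher without the alignment.

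The promoters of Polr2a and Polr2b are shown because these partner subunits lay on opposite sides of the median of all genes. Each window runs from 250 bases before to 50 after the start of the gene in RefSeq (build GRCm38.p6), on the strand of the gene, and capitals mark the searched motifs. The Polr2a window is chr11:69758584-69758883 on the minus strand and the Polr2b window is chr5:77310234-77310533 on the plus strand.
Polr2a: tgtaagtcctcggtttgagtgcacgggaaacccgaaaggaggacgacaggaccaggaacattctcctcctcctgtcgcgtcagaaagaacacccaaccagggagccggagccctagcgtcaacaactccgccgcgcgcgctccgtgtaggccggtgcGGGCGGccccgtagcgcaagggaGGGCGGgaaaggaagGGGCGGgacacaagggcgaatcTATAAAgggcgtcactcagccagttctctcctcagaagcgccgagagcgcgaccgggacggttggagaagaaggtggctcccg
Polr2b: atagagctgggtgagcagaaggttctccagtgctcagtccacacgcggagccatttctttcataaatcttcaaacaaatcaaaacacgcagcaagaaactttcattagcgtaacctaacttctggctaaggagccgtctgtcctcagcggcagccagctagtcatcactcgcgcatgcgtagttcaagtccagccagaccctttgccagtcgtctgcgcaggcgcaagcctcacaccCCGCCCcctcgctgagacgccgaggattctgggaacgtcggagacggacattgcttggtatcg
The motifs were searched on both strands. The TATA box was taken as TATAAA. The box named for its letters was CCAAT. The GC box was taken as GGGCGG. The motif of ETS factors was taken as CCGGAAG. The Polr2a window holds TATAAA beginning 33 bases before the start and GGGCGG beginning 55, 70 and 93 bases before it. The Polr2b window holds no TATAAA and 1 GC box, read on the other strand as CCGCCC. A match is a description of the letters only.

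A RefSeq window was found for 70 of the 80 genes, 84 windows in all. A GC box was in 61.9% of them and in 35.7% of all 32851 windows, an ETS motif in 31.0% against 8.86%, a CCAAT box in 34.5% against 37.4% and TATAAA in 14.3% against 13.6%. The windows of members had a median GC content of 58.0%, against 52.7% in all windows, and a median of 22 CG pairs against 7. All windows were used whether or not their gene passed the filter. No comparison was made with genes above the filter or with windows of like GC content. Across the 65 members above the filter with a window, promoter GC and the log2 ratio had a Spearman rho of 0.11, where genes are no independent replicates and share both arrays.

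Among the general factors from TFIIA to TFIIH the genes of TFIIE had the highest median ratio (0.68), and those of TFIIA and TFIIB lay slightly below the median of all genes. TFIIE recruits and stimulates TFIIH, and both of its genes were above that median. Gtf2e1, the larger subunit, read 1560 against 817 (0.93, 1.91-fold higher), and Gtf2e2 read 1810 against 1353 (0.42). TFIIF escorts the polymerase to the promoter. Gtf2f1 read 1281 against 900 (0.51) and -0.11 by its second probe set, and Gtf2f2 read 742 against 672 (0.14). TFIIA and TFIIB steady TBP on the promoter and position the polymerase, and their genes lay slightly under the median of all genes. Gtf2a2 read 3160 against 2981 (0.08), Gtf2b 1948 against 1809 (0.11) and Gtf2a1 1747 against 1661 (0.07).

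TFIIH opens the promoter DNA and phosphorylates the polymerase tail. Of its 4 core genes measured, Gtf2h4 was past 2-fold, at 895 against 390 (1.20, 2.29-fold higher). That call rested on 1 probe set of a kind whose name marks possible cross-hybridisation. The other 2 probe sets above the filter read 549 against 542 (0.02) and 321 against 311 (0.05), and the call was lost with the mean of the gene's probe sets (0.42). Gtf2h1 read 1396 against 941 (0.57). Gtf2h5, a small stabilising subunit, read 1847 against 1306 (0.50) and -0.34 by its other probe set, and Gtf2h3 read 441 against 490 (-0.15). The 5 genes of the TFIIH helicases and kinase, which the symbol rule does not take in, had a median ratio of 0.49. With the mean of each gene's probe sets that median was 0.28. All 5 ratios were positive, but that of the helicase gene Ercc2 (0.11) was negative under the other 3 scalings, and the probe sets of the kinase gene Cdk7 above the filter ran from -1.37 to 0.49. Ccnh, the cyclin of the TFIIH kinase, was the only one past 2-fold, at 3564 against 1060 (1.75). The name of that probe set too marks possible cross-hybridisation. The other probe sets of Ccnh were at 0.85 and 0.58, short of 2-fold. In the TFIIH group the genes for the kinase's cyclin, its assembly factor Mnat1 (0.71) and the core gene Gtf2h1 thus stood above the median of all genes. Mnat1 and Gtf2h1 were chosen after their values were seen.

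TFIID recognises the core promoter. Of its 13 TAF genes above the filter 8 lay above the median of all genes, none was 2-fold apart, and the median ratio was 0.31. The highest was Taf9b, a paralogue of the histone-fold protein Taf9, at 1002 against 602 (0.74). Taf3, which reads a methylated histone tail found at promoters, was at 289 against 184 (0.65). Taf1, the largest subunit, read 1652 against 1248 (0.40). The lowest was Taf10, a histone-fold protein of both TFIID and the coactivator SAGA, at 4849 against 7078 (-0.55), and its other probe set was also lower, at 489 against 596 (-0.29). Taf6, which pairs with Taf9, was the only other TFIID gene with a negative ratio on the aligned scale, at 703 against 917 (-0.38). Taf10 and Taf6 were lower under all 4 scalings tried. Taf3, Taf1 and Taf6 were named beyond the highest and lowest genes, Taf3 and Taf1 after their values were seen.

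Paralogous TAF genes did not share 1 order. Taf4, a scaffold of TFIID, read 1695 against 1359 (0.32), and Taf4b, a paralogue first described in B cells, read 1080 against 990 (0.13). Their second probe sets were lower in each case, at 0.03 and -0.24. Taf5 read 545 against 500 (0.13) and its SAGA counterpart Taf5l 804 against 952 (-0.24). For Taf6 the order was the other way, with Taf6l of SAGA at 342 against 266 (0.36). Taf7 and its germ cell paralogue Taf7l were under the filter on both arrays, with brightest probe sets at 56.7 against 35.6 and 62.8 against 45.5.

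Some genes share the TAF symbol but serve other complexes. Taf1a, Taf1b, Taf1c and Taf1d belong to the factor that recruits polymerase I to ribosomal RNA genes, and their ratios ran from -0.11 (Taf1c, 680 against 733) to 0.27 (Taf1d, 1268 against 1051). Taf15, an RNA-binding protein of the FET family, read 1226 against 819 (0.58) by one probe set and 89.8 against 135 (-0.59) by the other. Its direction is therefore not settled by these probe sets.

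The TFII-I family, signal-responsive DNA-binding factors of a separate kind, held the 2 remaining genes past 2-fold. Gtf2ird1 read 149 against 9.28, at least 5.95-fold higher because the non-transgenic value was set to 25.1, and its other probe set was under the filter (25.8 against 14.0). Gtf2ird2 read 615 against 283 (1.12, 2.17-fold higher) by its only probe set, and its ratio was 0.96, short of 2-fold, without the alignment. Gtf2i itself, the founding member, read 2456 against 2029 (0.28), with its other probe set above the filter at -0.01. The RefSeq promoters of all 3 genes lie on chromosome 5. For Gtf2ird1 the ratio was 0.60 when every value under the array median was set to that median.

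**Figure D3:**
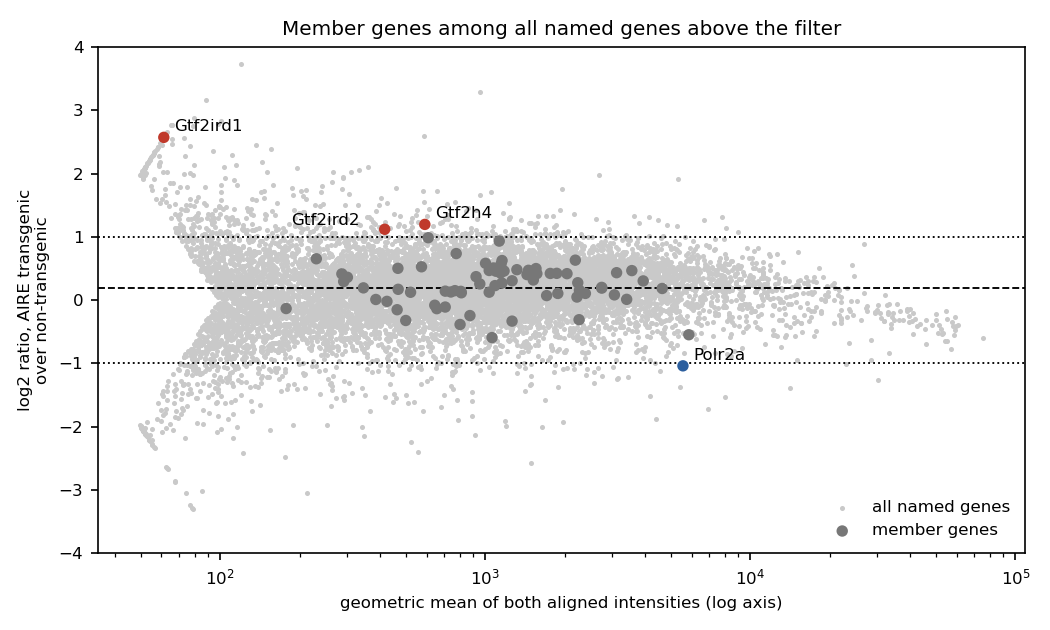
Log2 ratio against the geometric mean of both aligned intensities (log axis) for all named genes above the filter (small grey points) and the 74 member genes (large points), with 1 array per group. The dashed line is the median of all genes (0.19) and dotted lines mark 2-fold. Most members lie in the middle of the cloud and Gtf2ird1 at its dim edge. Polr2a lies past 2-fold lower, as 3.19% of all genes do.

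Mediator as a whole stood level with the other genes, but its modules did not all lie on the same side. Its 29 genes above the filter had a median of 0.20, with 16 above the median of all genes and none 2-fold apart. The head contacts the polymerase, and 5 of its 7 genes lay above the median of all genes, with a module median of 0.42. In the middle module 7 of 9 genes did, with a median of 0.46. In the tail, which binds activators, 3 of 9 genes did, with a median of -0.13. Of the kinase module, which holds Mediator off the polymerase, only the genes with a Med symbol are counted here. None of these 3 did (1 of 3 without the alignment or with the mean of each gene's probe sets), with a median of 0.01. Its kinase and cyclin genes Cdk8, Cdk19 and Ccnc had a median of 0.28, and 2 of the 3 lay above the median of all genes. Relative to all genes, the head lay at 0.24, the middle at 0.27, the tail at -0.32 and the Med genes of the kinase module at -0.17. Head and middle stayed above all genes under the other 3 scalings and with the mean of each gene's probe sets. The tail and the Med genes of the kinase module stayed below all genes in the same settings. With these alternatives the tail ran from -0.31 to -0.23 and the head from 0.23 to 0.29. No test of the difference between modules is possible with 1 array per group.

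In the head, Med18 was highest at 857 against 432 (0.99, 1.98-fold higher), just short of 2-fold. Med20, which pairs with the Med18 product, followed at 2721 against 1755 (0.63), and a second probe set gave 0.11. Med17, the scaffold of the head, read 1285 against 935 (0.46). The lowest was Med6, at the contact between head and middle, at 388 against 385 (0.01), although its other probe set above the filter read 415 against 241 (0.78). By the brightest probe set of each gene, Med18 and Med20 thus differed in the same direction and by more than the rest of the head.

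In the middle module the ratios ran from -0.08 to 0.53. Med21, at its hinge, read 690 against 478 (0.53), Med26, which brings in elongation factors, 557 against 393 (0.50), Med7, the partner of Med21, 1713 against 1235 (0.47), and Med31, at the knob, 1217 against 879 (0.47). The other probe set of Med26 above the filter was at -0.04. Med10 read 2948 against 2562 (0.20). Med1, the target of nuclear receptors, read 2390 against 2146 (0.16), and its 5 probe sets above the filter ran from -0.03 to 0.35. Med19 was lowest, at 627 against 663 (-0.08), although a second probe set read 324 against 204 (0.66). Med14, the backbone that joins the modules, read 1178 against 1004 (0.23), while its 3 other probe sets above the filter were all negative, from -0.49 to -0.23. Med26, Med7 and Med31 were named after their values were seen.

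The tail held the lowest Mediator gene, Med16, at 864 against 1301 (-0.59, 1.51-fold lower), by its only probe set. Med15, a target of many activators, read 1125 against 1415 (-0.33) and Med25, likewise bound by activators, 448 against 560 (-0.32), but their other probe sets were at 0.09 and 0.02. Med24, the neighbour of Med16 in the tail, read 626 against 687 (-0.13). On the other side stood Med28, at 4199 against 3037 (0.47), Med30, at 2036 against 1519 (0.42), and Med23, at 1050 against 811 (0.37). The other probe set of Med28 read 271 against 481 (-0.83), so its direction is not settled. Med15, Med23, Med24, Med25 and Med30 were named after their values were seen.

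The kinase module genes with a Med symbol differed little. Med12, which activates the module's kinase, read 2029 against 2512 (-0.31). Med13, which tethers the module to Mediator, read 4957 against 4361 (0.19), and its paralogue Med13l 3430 against 3399 (0.01). Med12l, the paralogue of Med12, was under the filter (97.8 against 87.0). Of the partner genes outside the symbol rule, the kinase gene Cdk19 read 1929 against 1760 (0.13), and -0.07 by its other probe set. Its paralogue Cdk8 and the cyclin gene Ccnc were chosen after their values were seen. Cdk8 read 2270 against 1168 (0.96). Ccnc read 442 against 364 (0.28), and its 4 probe sets above the filter ran from 0.21 to 0.89.

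**Figure D4:**
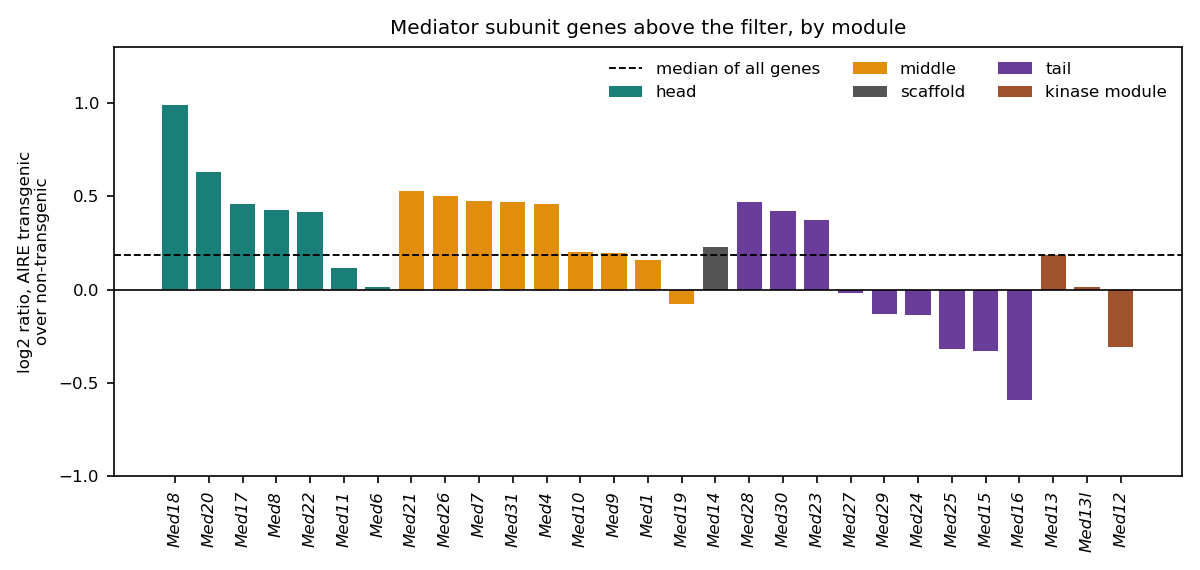
Log2 ratio of AIRE transgenic over non-transgenic for the 29 Mediator genes above the filter, ordered within each module (bar colours), by the brightest probe set and with 1 array per group. The dashed line is the median of all genes (0.19); most head and middle genes reach above it and 6 of the 9 tail genes have negative ratios, with Med18 (0.99) and Med16 (-0.59) at the ends.

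The promoters of Med18 and Med16 are shown as those of the Mediator genes with the highest and the lowest ratio, in the same window and with the same motifs in capitals. They are chr4:132463872-132464171 and chr10:79908889-79909188, both on the minus strand of GRCm38.p6 in RefSeq.
Med18: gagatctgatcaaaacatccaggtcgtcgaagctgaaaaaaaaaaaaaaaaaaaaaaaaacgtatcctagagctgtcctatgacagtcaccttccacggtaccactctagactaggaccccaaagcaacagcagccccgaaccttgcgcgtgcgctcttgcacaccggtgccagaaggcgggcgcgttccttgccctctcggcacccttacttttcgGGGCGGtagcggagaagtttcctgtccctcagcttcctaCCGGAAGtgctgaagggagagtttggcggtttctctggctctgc
Med16: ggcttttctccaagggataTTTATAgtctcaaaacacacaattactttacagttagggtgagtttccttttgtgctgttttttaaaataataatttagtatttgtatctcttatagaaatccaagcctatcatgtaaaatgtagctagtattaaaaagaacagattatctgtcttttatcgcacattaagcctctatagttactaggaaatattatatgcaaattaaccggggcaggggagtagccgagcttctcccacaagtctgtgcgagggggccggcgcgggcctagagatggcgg
The Med18 window holds 1 GC box and an ETS motif that begins just past the start, with a GC content of 53.3%. The Med16 window has a GC content of 39.3%, which with the window of Polr2m is the lowest among the 84 windows of members, and its only match is TTTATA, the reverse complement of TATAAA, 231 bases before the start.

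The probe sets of 1 gene are the only repeated readings that these arrays hold, and they often differed. Of 27 member genes with at least 2 probe sets above the filter, 7 had ratios of 1 sign and 20 of both signs. Across the array 50.3% of such genes had 1 sign, against 25.9% of the members. Counted by the side of the median of all genes in place of the sign, 46.3% of such genes and 33.3% of the members had all probe sets on 1 side. The median distance between a gene's highest and lowest probe set was 0.54 in members and 0.58 in all genes, and the SD between probe sets of a gene, pooled over genes, was 0.46 and 0.51. Of the 74 members, 60 lay within that SD of 0.46 of the median of all genes, so that most differences given here are no larger than the spread between probe sets of a gene. That SD holds no variation between mice or arrays, so a gene outside it is not thereby replicated. Polr2a lay outside it, as did Med18 (0.99), Gtf2e1 (0.93), Med16 (-0.59) and Taf10 (-0.55), among others. Both readings of Polr2a were past 2-fold, though 1.23 apart. Of all 116 member probe sets that passed the filter, 3 were higher by 2-fold or more (4.52% of all probe sets were) and 2 lower by as much (4.02% were), and both lower ones were those of Polr2a.

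The widest spreads were in Taf1d, whose 7 probe sets ran from -0.70 to 0.80, in Med28 (-0.83 and 0.47), in Polr2a and Gtf2h4 as given above, in Taf15 and in Med13l (-0.23 to 0.85 over 3). Only 7 member genes had 3 or more probe sets above the filter. The narrowest spreads among these were those of Gtf2a1 (-0.10 to 0.09), Med1 (-0.03 to 0.35), Med14 (-0.49 to 0.23) and Med13 (-0.69 to 0.21). Those of Med14 (0.72) and Med13 (0.89) were still wider than the median distance of 0.54 in members. The second brightest probe set gave the lower ratio in 18 of the 27 genes, a share of 66.7%, against 60.9% of such genes on the whole array. Probe sets can read different ends or splice forms of a transcript, and which of these they read was not examined.

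**Figure D5:**
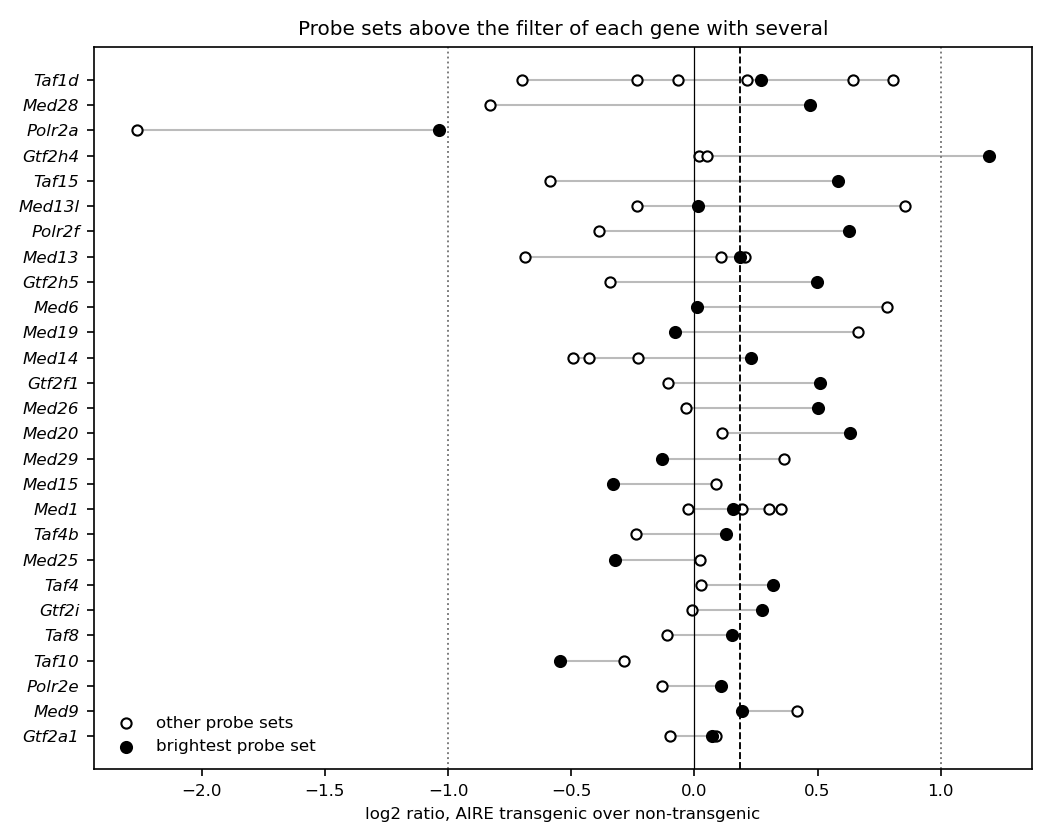
Log2 ratio of every probe set above the filter for the 27 member genes that have several, sorted by the distance between the highest and the lowest. Filled circles are the brightest probe set of a gene and open circles the others, with 1 array per group; both readings of Polr2a lie under -1, while 20 genes have probe sets on both sides of 0.

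The rest of the pathway was read from lists of factors that act beside the polymerase. Of 76 such genes that passed the filter, 4 were higher by 2-fold or more, a share near the 4.43% of all genes. None was lower by as much, where 3.19% of all genes were. The 76 genes had a median of 0.22, and 40 of them lay above the median of all genes. P-TEFb is the kinase that releases paused polymerase, and AIRE is known to recruit it. Its kinase gene Cdk9 read 6489 against 5478 (0.24, other probe set 0.003), close to the median of all genes. The genes past 2-fold in this list were its inhibitors Hexim1, at 2509 against 1216 (1.05, other probe set 0.78), and Hexim2, at 156 against 77.4 (1.01). Hexim2 passed the filter through the transgenic array alone, where it is higher, and its other probe set was under the filter. Both were short of 2-fold under the other 3 scalings, where Hexim1 was between 0.84 and 0.88. The rest of this list of 7 genes was mixed. Larp7 and Mepce were at -0.09 and -0.11, each with probe sets of both signs. The cyclin gene Ccnt2 was at 0.69, and its 5 probe sets above the filter ran from 0.18 to 1.11. The cyclin gene Ccnt1 was at 0.12, with its other probe set at -0.93. The 21 pausing and elongation factors had a median of 0.19, equal to that of all genes, with none 2-fold apart. Tcea1, which restarts arrested polymerase, read 5075 against 4027 (0.33), and -0.05 by its other probe set.

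The kinases and phosphatases of the polymerase tail had a median of 0.36 over 11 genes (-0.04 with the mean of each gene's probe sets) with none 2-fold apart, and the phosphatase gene Ctdsp2 read 4622 against 3068 (0.59), with other probe sets at -0.72 and 0.01. TBP and its related factors had a median of 0.14 over 5 genes. Tbp itself, chosen after its values were seen, read 1128 against 1063 (0.09), and the TBP-displacing factor Btaf1 read 2598 against 2197 (0.24). The other probe sets of Btaf1 were at 0.15 and -0.11. The 6 assembly factors had a median of 0.24 (-0.06 with the mean of each gene's probe sets), with Uri1 at 3460 against 3084 (0.17). The other probe sets of Uri1 were at 0.02 and -0.52. Some genes on the lists of the 3 polymerases serve more than 1 enzyme, as Polr1d, Polr2e, Polr2f and Polr2h do. The 8 genes listed for polymerase I had a median of -0.08 and the 10 for polymerase III 0.14. The genes of polymerase II without Polr2a had a median of 0.28. This order did not hold with the mean of each gene's probe sets, which gave 0.07, 0.25 and 0.22. Polr1d, a subunit of polymerases I and III, read 4772 against 4900 (-0.04), and its 4 probe sets above the filter ran from -0.35 to 0.50. Polr3k, the proofreading subunit of polymerase III, read 1778 against 888, just past 2-fold, and its 3 other probe sets above the filter were positive too, from 0.57 to 0.82. Under the other 3 scalings it was short of 2-fold. The catalytic subunits of these enzymes differed less than Polr2a, with Polr1a at 349 against 404 (-0.21, other probe sets above the filter -0.63 and -0.72) and Polr3a at 1545 against 1096 (0.50), both chosen after their values were seen.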

How the data were processed

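RNA of B cells was measured on 1 array per group, and the deposited values are linear intensities per probe set. Which software, background step and scaling the authors used is not given in the sources used here. On both arrays the deposited intensities averaged 500.0 once the top and bottom 2% of probe sets were trimmed. The medians of the 45037 probe sets that are no controls, 93.1 (transgenic) and 104.3, were aligned (factors 1.06 and 0.947). A floor was then set at the 25th percentile of both arrays before log2 values were computed. Each gene was read from its brightest probe set, and the filter asked for the median of both arrays in at least 1 of them. Of the probe sets, 34945 carry 1 symbol, 932 several and 9160 none. All 147 member probe sets matched RefSeq (GRCm38.p6) by Entrez identifier and 0 were renamed.

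With 1 array per group nothing was tested. The number of arrays limits the precision, and counts past 2-fold are set beside those of all genes. Named were every Polr2 gene, members past 2-fold, the brightest, highest and lowest of each complex, genes with the widest and narrowest probe set spread, paralogue pairs and the leading genes of the pathway lists. Other names were chosen after their values were seen. The members and lists were chosen with earlier results of these data known. The steps were tested on simulated arrays with planted folds. The computation ran in Python 3.11.15 with pandas 2.3.3 and numpy 2.4.6, loess came from statsmodels 0.14.6, rank correlation from scipy 1.17.1 and figures from matplotlib 3.10.9.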

Additional observations from a re-analysis of the deposited data

How the results depend on the processing

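Counts of members past 2-fold and their median relative to all genes were recomputed under other scalings, filters, floors, probe set rules and fold thresholds. Under the other scalings 2 to 3 of 74 members were higher and 1 lower. Of all genes, 2.70% were higher and 4.76% lower on the deposited scale. These shares were 3.50% and 3.78% with quantile normalization and 3.67% and 3.68% with loess. Among all calls of the array, the share of higher ones went from 58.1% to 36.2% on the deposited scale. It was 48.1% with quantile normalization and 49.9% with loess. Leaving out probe sets whose names end in _s_at, _x_at or _a_at left 1 of 60 members 2-fold higher, Gtf2ird2 (4.35% of all genes were). It gave Gtf2ird1 no value. Counting every probe set on its own gave 2 of 116 lower (4.02% of all probe sets were). A threshold of 1.5-fold gave 9 higher and 2 lower (17.4% and 8.42% of all genes). A threshold of 3-fold gave 1 and 0 (1.22% and 1.08% of all genes). An alternative chosen after seeing the data kept only the members of polymerase II, TFIIA to TFIIH, TFIID and Mediator. There 1 of 64 was higher (4.43% of all genes were) and 1 lower (3.19% were). The median of the members relative to all genes was 0.09, and 0.25 without the filter, where dim genes at the floor pull the median of all genes to 0.03. That relative median was 0.06 after quantile normalization and 0.05 after loess. With every probe set counted on its own, the median ratio was 0.153 for members and 0.149 for all probe sets. Of the 4 named genes past 2-fold, Gtf2h4, Gtf2ird1 and Gtf2ird2 fell short of it in 5 of 41 values under alternatives. Most other named genes lie far inside 2-fold, so their side of it says little. Of 48 genes named by the rule, 15 had the opposite sign under at least 1 of the other scalings. All 15 had ratios of at most 0.20 in size, Gtf2a1, Gtf2b and Med13l among them. Over all alternatives 23 of the 48 genes had the opposite sign at least once, and larger ratios turned too. With the mean of each gene's probe sets, Med28 went from 0.47 to -0.18 and Med14 from 0.23 to -0.23. Taf15 went from 0.58 to -0.002 in that setting. Polr2a stayed at least 2-fold lower under each setting except the 3-fold threshold. No paired analysis was possible because each group has 1 array.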
